A study of Mus musculus with 441 samples.

Results

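The 8 genes described here are commonly used readouts of Wnt/beta-catenin signalling: Axin2, Lef1, Ccnd1, Tnfrsf19, Cdx1, Cdx2, T and Sp5. They were taken by name from a list, not by their values, out of 27654 gene names in the 4 deposited tables. All 8 were listed in the bulk RNA, single-cell mouse embryonic stem cell (mESC) and ChIP tables, and 4 of them (Axin2, Lef1, Ccnd1 and Tnfrsf19) in the table of neural precursor cells (NPCs). The groups were v6.5 mESCs in 2i+LIF medium (94 single cells and 1 bulk library), Dgcr8 -/- mESCs made in the v6.5 background and grown in serum+LIF (84 cells and 2 bulk libraries), v6.5 mESCs in serum+LIF (90 and 93 cells on 2 plates, and 2 bulk libraries), and 54 nestin-positive NPCs derived from v6.5 mESCs, selected in ITSFn medium and expanded with N2 and bFGF on laminin. Every mESC culture contained LIF, and the knockout was 1 line. The 3 mESC populations also had ChIP libraries for RNA polymerase II (RNAP2), H3K4me3, H3K27ac, H3K27me3, H3K36me3 and H3K9me3 and an input, 1 library each.

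In the canonical Wnt pathway, a destruction complex built on Axin and Apc lets the kinase GSK3 mark beta-catenin for degradation. When a Wnt ligand, or a GSK3 inhibitor, blocks this step, beta-catenin accumulates, enters the nucleus and acts through the DNA-binding factors of the TCF/LEF family. The 2i medium combines a GSK3 inhibitor with a MEK inhibitor, so a difference between 2i and serum medium cannot be assigned to either inhibitor, nor told apart from the loss of serum. In mESCs, beta-catenin is known above all for relieving repression by Tcf7l1, which supports self-renewal, while in the embryo the pathway drives the primitive streak and posterior body axis. Axin2 is a feedback scaffold of the destruction complex, Lef1 a TCF/LEF factor, Ccnd1 the G1 cyclin D1, Tnfrsf19 (Troy) a receptor of the TNF receptor family, Sp5 a zinc-finger factor, T the primitive streak factor brachyury, and Cdx1 and Cdx2 homeobox factors of the posterior axis, Cdx2 also being a trophectoderm factor.

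The promoters of 4 of the genes are shown as examples whose ChIP windows or RNA separated the cultures: Axin2 and Sp5 (H3K27ac), Tnfrsf19 (RNA) and T (H3K4me3). Lef1, Ccnd1 and Cdx1 also differed between cultures in ChIP or RNA and are not shown. The promoters are from RefSeq, build GRCm38.p6, and run from 250 bases before to 50 bases after the annotated start, 5′ to 3′ on the gene's strand. Capitals mark matches to the TCF/LEF motif, searched on both strands as CTTTGAA and as the versions that end in GAT, GTA or GTT instead of GAA. The intervals are chr11:108920099-108920398 on the + strand for Axin2, chr2:70474673-70474972 on the + strand for Sp5, chr14:61037938-61038237 on the - strand for the first of 2 Tnfrsf19 starts, and chr17:8434173-8434472 on the + strand for T.
Axin2: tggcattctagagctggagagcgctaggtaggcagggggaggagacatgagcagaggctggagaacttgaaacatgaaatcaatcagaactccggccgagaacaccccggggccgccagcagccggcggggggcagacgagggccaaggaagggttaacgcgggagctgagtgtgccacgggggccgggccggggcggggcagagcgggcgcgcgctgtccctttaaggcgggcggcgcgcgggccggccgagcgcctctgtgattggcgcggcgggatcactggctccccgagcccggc
Sp5: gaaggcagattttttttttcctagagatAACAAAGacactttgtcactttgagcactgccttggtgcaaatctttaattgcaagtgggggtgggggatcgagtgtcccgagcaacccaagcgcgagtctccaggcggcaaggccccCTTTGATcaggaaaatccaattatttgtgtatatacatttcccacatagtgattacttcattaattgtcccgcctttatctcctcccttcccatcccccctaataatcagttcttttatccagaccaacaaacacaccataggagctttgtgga
Tnfrsf19: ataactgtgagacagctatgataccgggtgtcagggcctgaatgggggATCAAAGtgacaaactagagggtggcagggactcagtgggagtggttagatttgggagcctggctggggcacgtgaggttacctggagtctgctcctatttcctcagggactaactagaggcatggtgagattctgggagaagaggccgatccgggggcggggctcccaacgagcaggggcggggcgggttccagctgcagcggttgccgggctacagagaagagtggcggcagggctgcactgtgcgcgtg
T: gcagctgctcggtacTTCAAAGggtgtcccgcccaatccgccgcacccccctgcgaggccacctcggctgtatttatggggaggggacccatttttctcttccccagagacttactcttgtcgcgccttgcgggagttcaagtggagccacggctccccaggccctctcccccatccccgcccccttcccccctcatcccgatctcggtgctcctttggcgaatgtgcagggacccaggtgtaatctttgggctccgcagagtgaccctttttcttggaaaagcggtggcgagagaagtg
Counted from the start, Sp5 held 2 matches, at -222 and -104, Tnfrsf19 held 1 at -202, T held 1 at -235, and Axin2 held none. Entries of 6 of the 8 genes were searched, with none usable for Ccnd1 and Cdx1. The build differs from that of the ChIP counts, so overlap with the ChIP windows was not checked. Cdx2 had no match, the second Tnfrsf19 start had none, and 1 of 4 Lef1 starts had 1 match. Of all 32851 promoters of this length, 16.9% held at least 1 match and 1.94% held 2 or more. A match is a run of letters, and its absence says only that these letters are not in the window.

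Read numbers behind the RNA values are not known, because TPM does not keep them. The number of genes with a TPM of at least 1 was 8991 in the 2i bulk library, 11057 and 10820 in the knockout and 8367 and 7562 in serum; per cell, its median was 9974 on the 2i plate, 9317.5 on the knockout plate, 7780 and 7648 on the serum plates and 7353 in NPCs. The ChIP windows held 333088 to 15315269 counts per library. Dgcr8 was at 4.03 and 2.20 TPM in the knockout bulk libraries, 4.66 in 2i and 10.6 and 10.3 in serum, so transcript was still counted in the knockout. In single cells it averaged 34 TPM on the 2i plate, 16 TPM on the knockout plate, where 79 of 84 cells had it, and 72.5 and 27 TPM on the serum plates. All 8 mESC markers were present in every mESC group, at a summed 8069 to 42304 TPM, and Nes was detected in 90.7% of NPCs. The 9 primitive streak and mesoderm markers listed for single cells summed to 2.29 TPM on the 2i plate and 2.73 TPM on the knockout plate. Mesp1, Foxa2, Evx1, Fgf8, Tbx6 and Cer1 were at 0 on both, and all 9 were at 0 on the serum plates. Gsc had a TPM of at least 1 in 30 cells in 2i (31.9%) and was listed at 0 in the knockout. Eomes reached that level in 9 cells in 2i and 20 knockout cells, and Mixl1 in 5 and 7. Bulk Gsc was at 0.903 TPM in 2i and at 0 in the knockout and serum libraries.

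In bulk RNA, the receptor gene Tnfrsf19 and the cyclin gene Ccnd1 had the highest mean levels of the 8 over the 5 libraries, and both rose in 2i and in Dgcr8 knockout cells. The other 6 genes stayed under a mean of 1 TPM over the 5 libraries, the minimum for testing, so no test was made for them in the main fit. The test was limma on log2(TPM + 1) over 10081 genes, with Benjamini-Hochberg adjustment and a call at an adjusted p under 0.05. A fold change on this scale understates the change of low genes. In bulk RNA, a lower level cannot be told apart from fewer cells carrying the transcript.

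Tnfrsf19 was at 3.00 TPM in the 2i library, at 1.44 and 2.45 TPM in the knockout libraries and at 0.212 and 0.697 TPM in the serum libraries. The 2i and knockout values were all above both serum values. The log2 change was 1.48 ± 0.34 in 2i (SE, limma adjusted p = 0.00526) and 1.02 ± 0.27 in the knockout (adjusted p = 0.0050). The median gene was itself 0.92 higher in the knockout libraries and 0.20 higher in 2i on this scale, so relative to the median gene the change was 1.28 in 2i and 0.10 in the knockout. With libraries centred on the median gene, the knockout change was -0.10 and not called (adjusted p = 0.796), while the 2i change remained called at 1.23 (adjusted p = 0.0475). The 2i call was lost without serum replicate 1 (adjusted p = 0.0654), and the knockout call was lost without serum replicate 1 (adjusted p = 0.0772) or knockout replicate 2 (adjusted p = 0.0591).

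Ccnd1 was at 4.83 TPM in the 2i library, at 14.4 and 15.3 TPM in the knockout libraries and at 2.40 and 1.46 TPM in the serum libraries. The 3 cultures did not overlap, and the knockout was the highest. How many of all genes separate in this way was not counted, here or for the other members. The log2 change was 2.45 ± 0.26 in the knockout (SE, limma adjusted p = 5.31e-06), and Ccnd1 was still higher by 1.33 after centring on the median gene (adjusted p = 0.000903). In 2i it was 1.01 ± 0.32 (adjusted p = 0.0304), a call that was lost without serum replicate 2 (adjusted p = 0.0771) and without either knockout replicate (adjusted p = 0.139 for each). In the direct comparison, Ccnd1 was lower in 2i than in the knockout by a log2 difference of -1.44 ± 0.32 (adjusted p = 0.00212), not called after centring (-0.57, adjusted p = 0.0785) or without knockout replicate 2 (adjusted p = 0.0548). For Tnfrsf19 the same difference was 0.46 ± 0.34 and not called (adjusted p = 0.246), but it was called after centring (1.33, adjusted p = 0.0249).

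Both tested members therefore counted as higher in 2i, where 20.4% of all tested genes were called higher and 11.8% lower. Both also counted as higher in the knockout, where 62.5% were called higher and 11.7% lower. Tnfrsf19 was under 1 TPM in both serum libraries and passed the filter only through its 2i and knockout values. Its entry into these counts was therefore not independent of its rise. A single member, Ccnd1, was called lower in 2i than in the knockout, beside 49.1% of all genes called lower and 11.9% higher. After centring, the calls were 1388 higher and 1882 lower in 2i, against 2054 and 1185 as deposited. In the knockout they were 2196 higher and 3681 lower, against 6303 and 1183 as deposited, and between 2i and the knockout 2997 higher and 2002 lower, against 1199 and 4951. The 2i and knockout comparisons share the 2 serum libraries.

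Markers of other cell types also differed between the bulk cultures. The 9 listed trophoblast markers summed to 7.91 TPM in 2i, 123 and 130 TPM in the knockout and 273 and 289 TPM in serum. Most of the knockout and serum sums came from the keratin genes Krt7, Krt8 and Krt18. Krt18 was at 94.3 and 101 TPM in the knockout and 99 and 98.1 TPM in serum, and Krt7 at 108 and 133 TPM in serum. Hand1, Ascl2, Plac1 and Esx1 were at 0 in 2i, but of these only Plac1 exceeded 0.585 TPM in serum (27.4 and 22.5 TPM). Elf5 was highest in 2i, at 6.27 TPM against 1.79 and 0.794 TPM in the knockout and 2.51 and 3.46 TPM in serum. Gata3 was also highest in 2i, at 0.606 TPM against 0.439 and 0.213 TPM in serum. Against serum, 4 of 5 tested markers fell in 2i and 4 of 5 in the knockout. Between 2i and the knockout, 3 were lower and 1 higher in 2i. Among fibroblast markers, S100a6 was at 3.89 TPM in 2i, 1.16 and 1.63 TPM in the knockout and 150 and 122 TPM in serum, while Col1a2 and Dcn were at 0 in all 5 libraries and Col1a1 did not exceed 0.122 TPM. The 7 neural precursor markers summed to 20.8 TPM in 2i, 93.5 and 87.1 TPM in the knockout and 4.38 and 4.14 TPM in serum, nearly all of it Sox2, which mESCs also express, and Vim. The part of these cells or transcripts in the changes of Tnfrsf19 and Ccnd1 was not tested.

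The low members were described by their values. Lef1 was at 1.81 TPM in the 2i library, at 0.387 and 0.308 TPM in the knockout libraries and at 0.642 and 0.455 TPM in the serum libraries; the 2i value was the highest and the knockout values lay below both serum values. Axin2 was at 0.223 TPM in 2i, at 0.105 and 0.195 TPM in the knockout and at 0.0860 TPM and 0 in serum, an order without overlap at levels where TPM is coarse. Cdx1 was at 0.694 TPM in 2i, at 0.135 TPM and 0 in the knockout and at 0 in both serum libraries. When genes of any level were tested, Cdx1 was called in 2i against serum (log2 change 0.76, limma adjusted p = 0.0406), whereas Lef1 (0.86, adjusted p = 0.0678) and Axin2 (0.23, adjusted p = 0.223) were not. Between 2i and the knockout, that fit called Cdx1 (0.67, adjusted p = 0.0237) and Lef1 (1.06, adjusted p = 0.0240). Of the 18932 genes in it, 960 were called higher and 509 lower in 2i against serum. Against the knockout, 1180 were called higher and 4223 lower in 2i. The Cdx1 call against serum rested on 1 library in 2i beside both serum libraries at 0.

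T, Cdx2 and Sp5 were at 0 in the 2i library and in both knockout libraries. Each was seen in 1 serum library only, T at 0.162 TPM, Cdx2 at 0.0813 TPM and Sp5 at 0.167 TPM. T carried the same values as A230056P14Rik and Cdx2 the same as AK036329, so these rows may not be separate measurements.

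**Figure D1:**
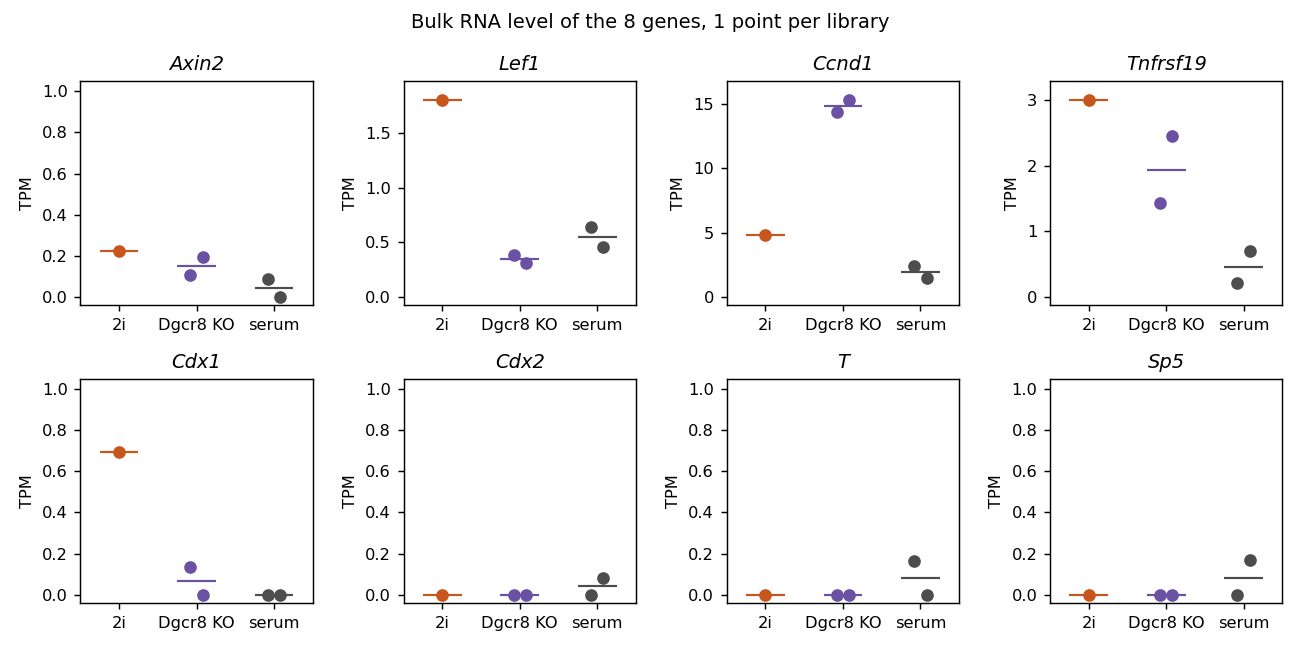
Bulk RNA level in TPM (y axis, a separate linear scale for each gene) for the 8 genes in 2i (1 library), Dgcr8 knockout (2) and serum (2) mESCs, with 1 point per library and a line at the group mean. Tnfrsf19, Lef1 and Cdx1 were highest in the 2i library, Ccnd1 was highest in the knockout libraries at 14.4 and 15.3 TPM, and Cdx2, T and Sp5 did not exceed 0.167 TPM.

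In single cells, Axin2 was detected on the 2i and knockout plates and listed at 0 on both serum plates. It had a TPM of at least 1 in 54 of 94 cells in 2i (57.4%; exact 95% interval 46.8 to 67.6), in 10 of 84 knockout cells (11.9%; 5.86 to 20.8) and in none of the 183 serum cells; intervals cover counting error only. The mESC table did not list small numbers of positive cells: no gene was above 0 in 1 to 9 of the 183 serum cells, or in 1 to 4 cells of the 2i or the knockout plate. A listed 0 can therefore stand for up to 9 serum cells (4.92%), 4 cells in 2i (4.26%) or 4 knockout cells (4.76%), and no fold against serum is given. Among Axin2-positive cells the median level was 2.75 TPM in 2i and 3.33 TPM in the knockout, and the highest cells were at 22.2 and 17.2 TPM. Of 808 other genes whose share in 2i lay within 5 points of that of Axin2, 81 (10.0%) were also listed at 0 in serum, and their median share was 47.6% of knockout cells and 28.4% of serum cells.

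Tnfrsf19 was detected in 83 of 94 cells in 2i (88.3%; 80 to 94.0), in 29 of 84 knockout cells (34.5%; 24.5 to 45.7) and in 17 of 90 (18.9%; 11.4 to 28.5) and 18 of 93 (19.4%; 11.9 to 28.9) serum cells. The level averaged 9.55 ± 9.10 TPM in 2i (SD over cells), 4.14 ± 10.3 TPM in the knockout, and 0.689 ± 1.92 and 0.630 ± 1.71 TPM on the serum plates. The 5 cells with the highest values on each plate held 18.4% of the summed level in 2i, 51.5% in the knockout and 64.4% and 56.7% on the serum plates. The highest knockout cell was at 70 TPM. With each plate taken as 1 sample (limma over 4 plates, 1 residual degree of freedom), Tnfrsf19 rose by 2.67 ± 0.11 in 2i (log2, SE; adjusted p = 0.0120) and by 1.63 ± 0.11 in the knockout (adjusted p = 0.0184). With log2(TPM + 1) averaged over cells instead, the changes were 2.43 in 2i and 0.68 in the knockout, both still called (adjusted p = 0.00438 and 0.0154). It was 1 of 3 members tested and the 1 called higher in each comparison, beside 39% of 12397 genes in 2i and 50% in the knockout. With serum means under 1 TPM, it passed the filter here too only through the 2i and knockout plates. The median gene was 1.24 higher on the 2i plate and 1.38 higher on the knockout plate. After centring on it, Tnfrsf19 was still higher in 2i (1.35, adjusted p = 0.00214) but not in the knockout (0.088, adjusted p = 0.798).

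Lef1 and Ccnd1 were present in most mESCs of every culture. Lef1 was detected in 66 of 94 cells in 2i (70.2%), 49 of 84 knockout cells (58.3%), and 63 of 90 (70%) and 62 of 93 (66.7%) serum cells, with overlapping intervals. Its mean was 2.52 ± 2.59 TPM in 2i, 2.20 ± 3.19 TPM in the knockout and 2.30 ± 2.47 and 2.45 ± 2.46 TPM in serum (SD over cells). The plate changes of Lef1 were 0.064 ± 0.10 in 2i (SE, limma adjusted p = 0.621) and -0.077 ± 0.10 in the knockout (adjusted p = 0.549). Because the median gene was higher on both plates, centring turned these into lower calls (-1.25 in 2i, adjusted p = 0.0043; -1.62 in the knockout, adjusted p = 0.000659). The higher Lef1 level of the 2i bulk library was thus not seen in the mean of the 2i cells.

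Ccnd1 was detected in 93 of 94 cells in 2i (98.9%), 77 of 84 knockout cells (91.7%), and 88 of 90 (97.8%) and 87 of 93 (93.5%) serum cells. It averaged 22.3 ± 14.7 TPM in 2i, 27 ± 22.2 TPM in the knockout and 14.6 ± 11.3 and 9.99 ± 7.81 TPM in serum. The 2 serum plates differed from each other, and the plate changes of 0.83 ± 0.36 in 2i (SE, limma adjusted p = 0.165) and 1.09 ± 0.36 in the knockout (adjusted p = 0.108) were not called. After centring they were -0.48 and -0.45, also not called (adjusted p = 0.167 and 0.171).

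Cdx1 was seen on 1 plate. It had a TPM of at least 1 in 15 of 94 cells in 2i (16%; 9.22 to 25.0), with a median of 1.69 TPM in those cells and 12.9 TPM in the highest, and was listed at 0 in all knockout and serum cells. Of 1045 genes with a share in 2i within 5 points of that of Cdx1, 571 (54.6%) were also listed at 0 in serum. T, Cdx2 and Sp5 were listed at 0 in all 361 mESCs.

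**Figure D2:**
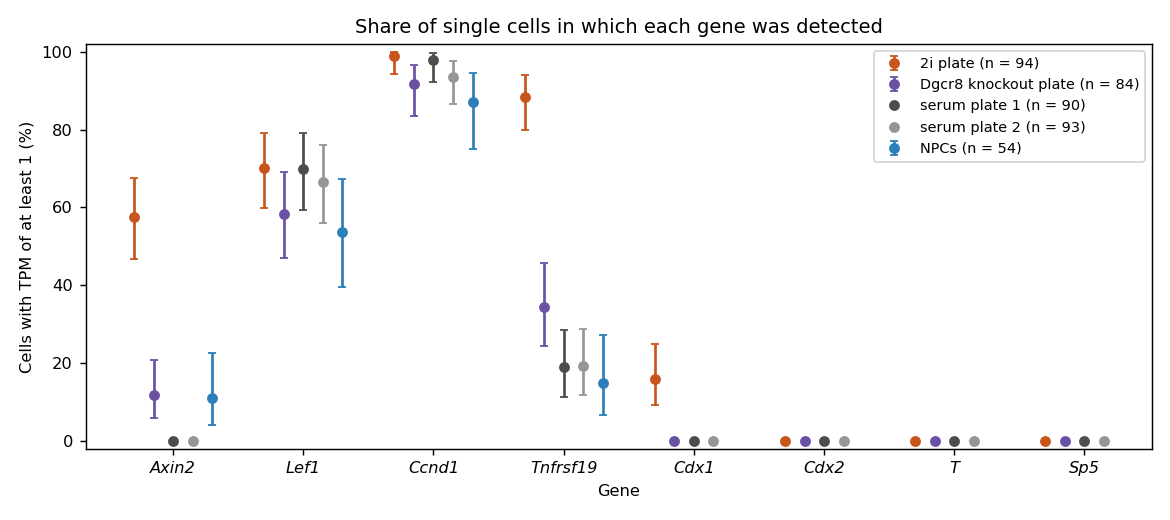
Share of cells with a TPM of at least 1 (y axis, percent) for each gene on the 2i, Dgcr8 knockout and 2 serum plates and in NPCs, with exact 95% binomial intervals covering counting error only; listed zeros have no interval, and 4 genes have no NPC value. Axin2 stood at 57.4% in 2i and 11.9% in the knockout and was listed at 0 in serum, while Lef1 and Ccnd1 had overlapping intervals between 2i and serum.

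The plates also differed in detection as a whole. Each 2i cell had at least 8122 detected genes, while the serum cells had at most 8695, so the range of genes per cell was almost separate: 1 cell in 2i, 10 knockout cells and 7 cells of each serum plate lay between these limits. The 1 cell in 2i had Axin2 at 2.12 TPM, and Axin2 was under 1 TPM in the 10 knockout cells and listed at 0 in the 14 serum cells. Within the 2i plate, Axin2 was detected in 27 of 48 cells with at most the median number of genes (56.2%) and in 27 of 46 with more (58.7%). Tnfrsf19 was detected in 85.4% and 91.3% of the same cells, Cdx1 in 14.6% and 17.4%, and Lef1 in 66.7% and 73.9%. Other plates, split at their own medians, differed more for some members. In the knockout, Lef1 was detected in 45.2% and 71.4% of cells and Tnfrsf19 in 28.6% and 40.5%. Lef1 was at 60% and 80% on serum plate 1, and at 80.9% and 52.2% on serum plate 2. The part of overall detection in the differences between plates was not tested. The 2i and knockout cultures each had 1 plate, so culture and plate cannot be told apart.

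**Figure D3:**
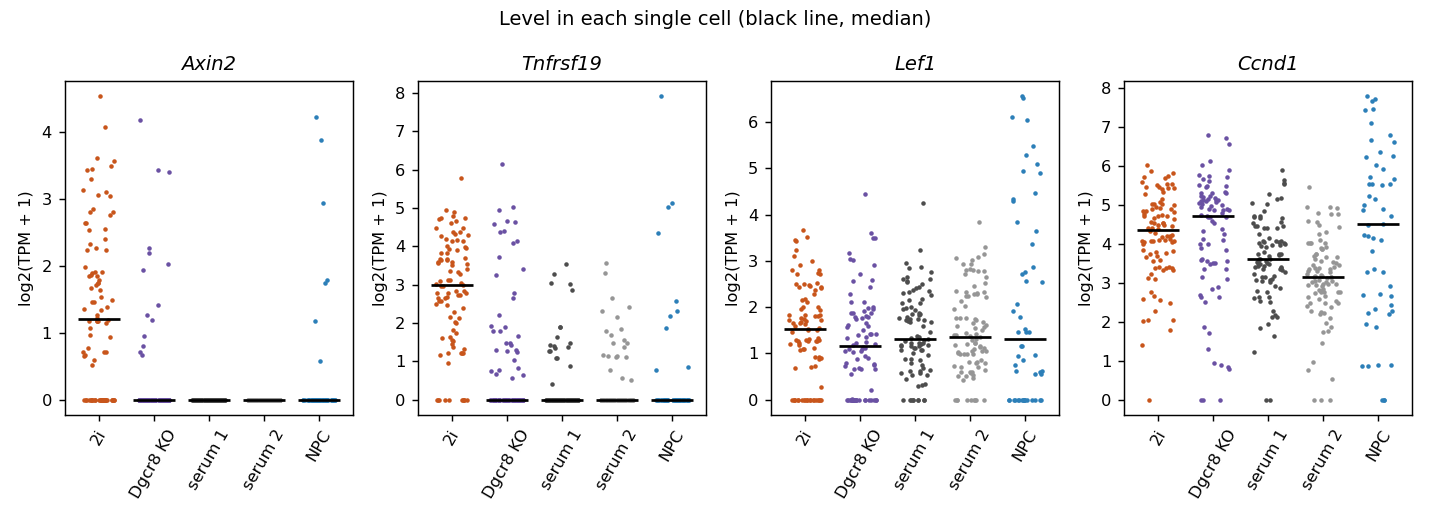
Level of 4 genes in each single cell, as log2(TPM + 1) on the y axis with a separate scale for each gene, by plate (serum 1 and serum 2 are the 2 serum plates; black lines are medians). The Tnfrsf19 median was 6.88 TPM in 2i and 0 in the other groups, the Axin2 median was 1.31 TPM in 2i and 0 elsewhere, and the Lef1 medians lay between 1.24 and 1.86 TPM on every plate and in NPCs.

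Cells in 2i had more of the 8 genes detected. The mean number detected per cell was 3.31 in 2i, 1.96 in the knockout and 1.87 and 1.80 on the serum plates, and 4 or more were detected in 37 of 94 cells in 2i (39.4%), 2 of 84 knockout cells (2.38%) and 0 of 183 serum cells. The genes listed at 0 set these limits: no serum cell could have more than 3 and no knockout cell more than 4, and a listed 0 can hide a few positive cells. Axin2 and Tnfrsf19 were found together in 49 of 94 cells in 2i (52.1%) and in 2 of 84 knockout cells (2.38%). These counts follow from the separate shares of each gene and were not tested for association.

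**Figure D4:**
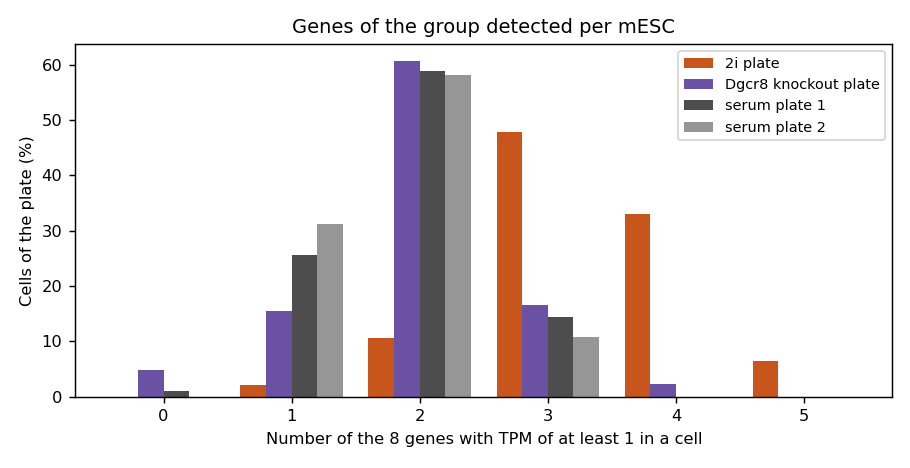
Percentage of cells of each mESC plate (y axis) by the number of the 8 genes with a TPM of at least 1 in the cell (x axis). Most knockout and serum cells had 2 of the genes, whereas 47.9% of cells in 2i had 3, 33% had 4 and 6.38% had 5.

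Across cells of 1 mESC plate, the levels of the genes were at most weakly correlated. Among the 10 pairs that 5 members form in 2i, Spearman's rho ran from -0.06 to 0.22 over 94 cells, with a median of 0.05. The highest pair was Axin2 with Ccnd1 (rho = 0.22), and Axin2 with Tnfrsf19 was at 0.03. The median was -0.02 over 6 pairs in the knockout (84 cells) and 0.02 and 0.07 over 3 pairs on the serum plates (90 and 93 cells). Correcting for the number of detected genes left the 2i median at 0.04 and gave -0.04 in the knockout and 0.01 and 0.16 on the serum plates. In NPCs (54 cells, 6 pairs) the median was -0.04, but Axin2 with Tnfrsf19 was at 0.42, with 3 cells having both, and Lef1 with Ccnd1 at 0.33, with 27 cells having both. These values describe cells that share a plate and library preparation, and a weak rho in sparse values shows neither a relation nor its absence.

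The genes most like each member across the 94 cells in 2i had rho of 0.33 to 0.44 with it in 2i and of -0.19 to 0.25 on the other mESC plates. They were picked by their 2i rho among 12725 genes, so its size in 2i follows from the choice and shows no relation. Only the other plates were not used in that choice. For Axin2 they were Ppia (rho = 0.44), Myg1 (0.39) and Napa (0.38) out of 12725 genes, with rho of -0.07, 0.01 and 0.11 in the knockout and no value in serum, where Axin2 was listed at 0. For Lef1 they were Lyrm5 (0.35), Zfp41 (0.34) and Taok3 (0.33), of which Zfp41 was at 0.25 in the knockout and -0.10 and -0.03 on the serum plates. For Ccnd1 they were Snapc5 (0.37), 1500009L16Rik (0.37) and Taf1b (0.36), of which Snapc5 was at 0.22 in the knockout and 0.08 and 0.01 on the serum plates, and Taf1b at 0.03 in the knockout and 0.08 and 0.23 on the serum plates. For Tnfrsf19 the 3 names mCLCA1, Clca2 and Clca1 had the same rho of 0.38, against -0.08 in the knockout and 0.03 and -0.16 on the serum plates.

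NPCs were read from a separately made table and are set beside the mESCs without a test. Ccnd1 was detected in 47 of 54 NPCs (87%) at a mean of 45.5 ± 58.6 TPM (SD over cells), and Lef1 in 29 of 54 (53.7%) at 11.7 ± 22.2 TPM. Their medians, 21.8 and 1.49 TPM, were within the range of the mESC plates for Ccnd1 (7.89 to 25.6 TPM) and Lef1 (1.24 to 1.86 TPM), so the higher means came from a minority of cells, 4 of which exceeded 64 TPM of Lef1. Axin2 was detected in 6 of 54 NPCs (11.1%) and Tnfrsf19 in 8 (14.8%). A single NPC held Tnfrsf19 at 241 TPM; the mean was 6.34 TPM with it and 1.92 TPM without it. Ordered by mean level, Axin2 and Tnfrsf19 were highest in 2i, and Lef1 and Ccnd1 were highest in NPCs. In every neighbouring pair of that order whose values were not all 0, the difference of the means was smaller than the SD over cells of at least 1 of the 2 groups.

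The rest of the pathway was represented by 82 other genes in 6 lists, of which 23 passed the filter in bulk. In 2i, 7 of the 23 rose, none fell and 16 did not pass (20.4% and 11.8% of all genes), with a median log2 change of 0.54 against 0.20 for all genes. After centring, 4 were higher and none lower. In the knockout, 17 rose, 1 fell and 5 did not pass (62.5% and 11.7%), and the split was 7 higher and 5 lower after centring. Porcn, Lrp6, Znrf3, Apc, Axin1, Dkk3, Sfrp4 and Tle3 were under 1 TPM in both serum libraries. They passed the filter only through their 2i or knockout values, so their entry into these counts was not independent of a rise. The same limit holds in the counts per list below and where these genes are named. Between 2i and the knockout, 2 were higher and 12 lower in 2i (11.9% and 49.1%), but 9 higher and 5 lower after centring, the median gene being at -0.72. On the plates, 22 of 35 tested genes rose in 2i and 27 of 35 in the knockout with none lower (39% and 50% of all genes higher), but after centring the split was 9 higher and 10 lower in 2i and 10 higher and 7 lower in the knockout. Genes with serum plate means under 1 TPM, such as Lrp6, Gsk3a and Tle3, likewise passed only through the other plates. Of 19 Wnt ligand genes 12 were in the bulk table, and none of these reached the minimum level; their summed level was 0.410 TPM in 2i, 0.352 to 0.843 TPM in the knockout and 0.417 to 0.715 TPM in serum.

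Among receptors and their turnover factors, 0 of 4 tested genes were called in 2i and 4 of 4 rose in the knockout, where 62.5% of all genes did (20.4% in 2i). Lgr4, an R-spondin receptor, was at 2.19 TPM in 2i, 15.2 and 11.7 TPM in the knockout and 1.62 and 1.5 TPM in serum, with a knockout change of 2.49 (log2, limma adjusted p = 4.43e-06) that was still called after centring. Znrf3, a ubiquitin ligase that removes Frizzled receptors, rose by 1.98 in the knockout (adjusted p = 5.12e-05). The Wnt-acylating enzyme gene Porcn rose by 1.07 (adjusted p = 0.00218) and the Wnt carrier gene Wls by 0.64 (adjusted p = 0.0397) in the knockout; centred, they were at -0.05 and -0.48 and not called. In 2i against the knockout, Lgr4 was lower by -2.17 (adjusted p = 0.000124) and the co-receptor gene Lrp6 by -1.25 (adjusted p = 0.00298); Lrp6 was not called after centring.

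In the destruction complex, 4 of 7 tested genes rose in 2i and 5 of 7 in the knockout, beside 20.4% and 62.5% of all genes. Gsk3b, the kinase that 2i inhibits, was at 20.7 TPM in 2i, 7.66 and 7.13 TPM in the knockout and 2.95 and 2.33 TPM in serum. The 2i value was above all others, with log2 changes of 2.58 against serum (limma adjusted p = 4.69e-05) and 1.37 against the knockout (adjusted p = 0.0020), both called after centring. Btrc, the ubiquitin ligase subunit that recognises phosphorylated beta-catenin, rose by 1.18 in 2i (adjusted p = 0.0108) and by 2.32 in the knockout (adjusted p = 5.09e-06). The casein kinase gene Csnk1e rose by 1.82 in the knockout (adjusted p = 4.89e-05).

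Of 4 tested nuclear effectors, 0 were called in 2i and 2 rose in the knockout, with 20.4% and 62.5% of all genes higher. Ctnnb1, which encodes beta-catenin, was at 18.8 TPM in 2i, 21.6 and 20 TPM in the knockout and 15.5 and 9.95 TPM in serum, and rose in the knockout by 0.70 (limma adjusted p = 0.0193), turning to -0.42 and not called after centring. Tcf7l2 rose in the knockout by 1.97 (adjusted p = 8.61e-06). Tcf7l1 was at 10.8 TPM in 2i, 4.82 and 3.27 TPM in the knockout and 6.12 and 4.33 TPM in serum; it was higher in 2i than in the knockout by 1.24 (adjusted p = 0.00685), and its change of 0.94 against serum was not called (adjusted p = 0.0502).

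Among 6 tested secreted and feedback inhibitors, 3 rose in 2i, and 4 rose and 1 fell in the knockout, where 62.5% of all genes rose and 11.7% fell (20.4% rose in 2i). Sfrp1, a secreted Wnt-binding inhibitor, was at 9.68 TPM in 2i, 36.2 and 34.7 TPM in the knockout and 1.37 and 1.2 TPM in serum. Its change was 2.23 in 2i (limma adjusted p = 9.4e-05) and 4.0 in the knockout (adjusted p = 3.99e-08), and it was lower in 2i than in the knockout by -1.77 (adjusted p = 0.000239); all 3 were called after centring. Dkk3 rose by 2.69 in the knockout (adjusted p = 1.28e-06). The Groucho corepressor gene Tle3 rose by 1.40 in 2i (adjusted p = 0.0127), and its relative Tle4 fell by 0.70 in the knockout (adjusted p = 0.0332). Tle4 had the same values as Tle1 in 4 of the 5 libraries and differed in knockout replicate 2 (1.33 TPM for Tle4 and 1.95 TPM for Tle1), and Tle1 was not called (-0.53, adjusted p = 0.0900), so the Tle4 call is uncertain.

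ChIP counts were read in 1 window of 1000 bases per gene, on build mm9; the sources used here do not say where in the gene it lies. The window of Axin2 was chr11:108781162-108782162, and that of Sp5 chr2:70312479-70313479. With 1 library per mark and condition there is no test, and intervals cover counting error only. Ratios to serum are given as log2((count + 1)/(count + 1)), less the same value of the median window, over windows with at least 20 counts in the pair; past the fold means beyond 1 in either direction.

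H3K27ac, a mark of active promoters and enhancers, was higher in 2i in the windows of Axin2 and Sp5. Axin2 had 677 counts in 2i (exact Poisson interval 627 to 730), 302 in the knockout (269 to 338) and 220 in serum (192 to 251). Sp5 had 130 counts in 2i, 40 in the knockout and 28 in serum, although no Sp5 RNA was listed in 2i. The relative log2 ratio in 2i was 1.43 for Axin2 and 1.99 for Sp5, and 0.63 and 0.67 in the knockout. Thus 2 of 8 members were past the fold upwards in 2i (4.64% of windows), and 1 downwards (10.2%). Axin2 also had 742 H3K4me3 counts in 2i, 290 in the knockout and 742 in serum, for relative ratios of 0.62 in 2i and -0.079 in the knockout. Cdx1 followed in H3K27ac with 200 counts in 2i, 69 in the knockout and 90 in serum (0.96 in 2i). Among windows with a similar serum count, Axin2 and Sp5 stood at percentiles 99.1 and 99.2 of the 2i ratio.

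Lef1 was past the fold downwards in 2i for both H3K27ac and H3K4me3, and T for H3K4me3. Lef1 had 53 H3K27ac counts in 2i, 86 in the knockout and 141 in serum (-1.58 in 2i), and 158, 93 and 524 counts of H3K4me3, a mark of promoters, in the same order. The relative H3K4me3 ratios of Lef1 were -1.10 in 2i and -1.21 in the knockout. T had 76 H3K4me3 counts in 2i, 91 in the knockout and 368 in serum (-1.64 in 2i). Lef1 and T were the 2 members past the fold downwards in H3K4me3 in 2i (7.53% of windows), and Lef1 the 1 in the knockout (1.12%).

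RNAP2 counts were low, near or below the input in most of these windows. In 2i, T had 5 counts beside an input of 26 and Cdx2 had 9 beside 44. Ccnd1 stood above its input in all 3 cultures, with 57 RNAP2 counts in 2i, 255 in the knockout and 246 in serum, beside inputs of 27, 21 and 14. Lef1 was also above it in serum, with 42 counts beside 16. These are raw counts from libraries of unlike size. The relative RNAP2 ratio of Ccnd1 was -1.44 in 2i and -0.10 in the knockout. Its H3K27ac was at 284 counts in 2i, 575 in the knockout and 493 in serum. The chromatin of Ccnd1 and its RNA were thus ordered differently: the bulk RNA was higher in 2i than in serum, and the RNAP2 count was lower. RNAP2 counts in the other direction were 32 in 2i, 36 in the knockout and 17 in serum for Axin2, 29, 25 and 10 for Sp5, and 25, 18 and 15 for Tnfrsf19, with inputs of 23 to 32. The 3 genes were past the fold in 2i at 1.52, 2.09 and 1.35 (3 of 7 usable members higher, beside 9.66% of windows, and 1 lower, beside 7.81%). In the knockout 1 member, Sp5, was past the fold (1.09; 8.52% of windows).

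H3K27me3, the mark of Polycomb repression, was abundant in serum at 5 of the windows and lower in 2i and in the knockout. T had 90 counts in 2i, 77 in the knockout and 245 in serum. Cdx2 had 77 in 2i, 92 in the knockout and 221 in serum. Sp5 had 37 in 2i, 79 in the knockout and 209 in serum, Cdx1 had 28, 83 and 193, and Lef1 had 47, 78 and 172, which placed these 5 windows between percentiles 97.4 and 99.4 of all windows in serum. The lowest 2i counts, those of Cdx1 and Sp5, were close to their inputs of 32 and 30.

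Relative to the median window, the H3K27me3 ratio in 2i was -2.30 for Cdx1, -2.03 for Sp5, -1.41 for Lef1, -1.17 for Tnfrsf19 and -1.07 for Cdx2, and -0.99 for T. The first 5 were past the fold (5 of 8 members, beside 9.79% of windows), as were T (-1.38), Tnfrsf19 (-1.33) and Sp5 (-1.11) in the knockout (3 of 8, beside 7.54%). Windows rich in this mark were lower as a whole. Windows with serum counts like those of Lef1, Cdx1, Cdx2, T or Sp5 numbered 344 to 757 for each gene. Their median ratio in 2i was between -1.06 and -0.90. Cdx2 and T lay near those medians, while Cdx1 and Sp5 lay below the 5th percentile of their comparison windows (-1.66 for each). Tnfrsf19 had only 48 counts in serum, and the 1869 windows like it had a median of -0.22. In the knockout the ratios of Cdx1 and Sp5 were -0.93 and -1.11, beside medians of -0.88 and -0.92.

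The other marks had few counts. In H3K9me3, a mark of heterochromatin, Lef1 had 28 counts in 2i, 18 in the knockout and 7 in serum and was past the fold in both (1 of 8 members higher in 2i, beside 7.48% of windows; 1 of 7 higher in the knockout, beside 6.50%, and 2 lower, beside 7.31%). These counts lay near the inputs of 26, 18 and 16. In H3K36me3, a mark of transcribed gene bodies, 1 of 8 members was lower past the fold in 2i (T, 13 counts against 26 in serum; 8.81% of windows), and in the knockout 1 of 6 was higher (5.95%) and 1 lower (7.17%). In H3K27ac of the knockout, 1 of 8 members was lower (Cdx2, 33 counts against 78 in serum; 7.53%).

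**Figure D5:**
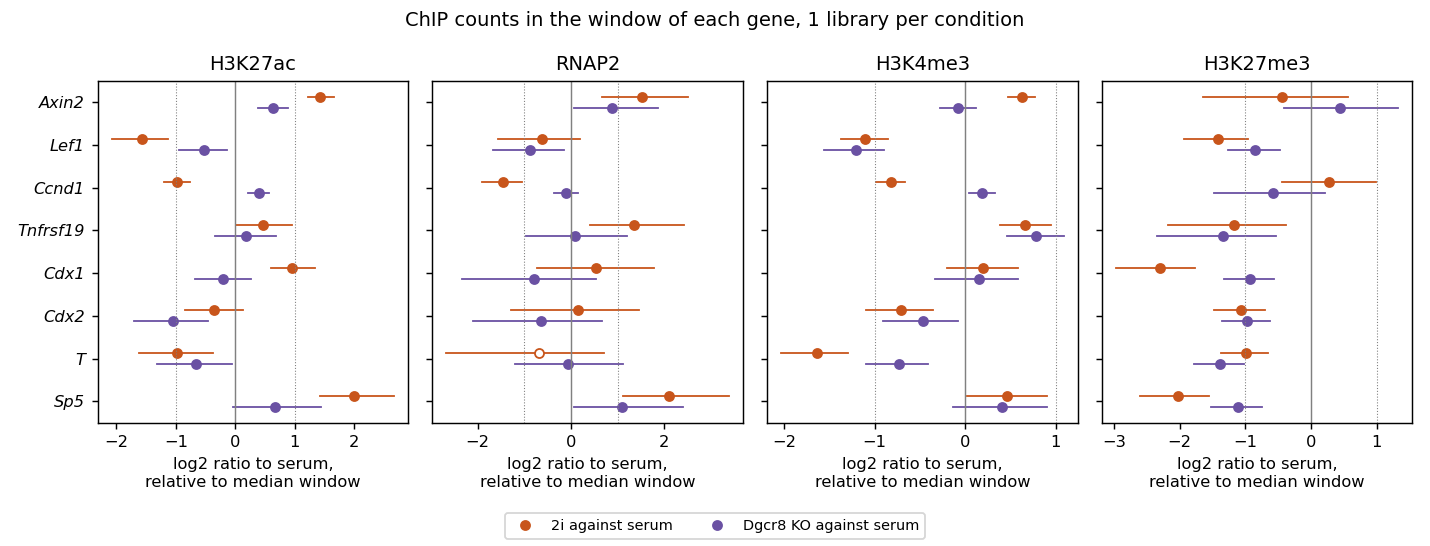
ChIP log2 ratio to serum, relative to the median window (x axis), for the window of each gene in 2i and in Dgcr8 knockout cells, 1 library per condition; horizontal lines are exact 95% intervals for counting error, the open point had fewer than 20 counts in the pair, and dotted lines mark the fold of 1. Axin2 and Sp5 lay at 1.43 and 1.99 for H3K27ac in 2i, and Cdx1 and Sp5 at -2.30 and -2.03 for H3K27me3.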

How the data were processed

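RNA-seq (SMARTer libraries from C1 chips, and bulk) and ChIP-seq were analysed from the deposited tables. Bowtie, RSEM and build mm9 appear in the submitters' processing notes, which give neither their versions nor their order. The deposited RNA values are natural logs of TPM + 1, as their sums after reversing the log show; the deposited ChIP values are raw counts in windows of 1000 bases. Date-like names were left out (51 in the mESC table, 25 in the NPC table). The 8 genes, the lists and the tests were chosen with earlier results of these data known. TPM was recovered, and limma 3.58.1 (R 4.3.3, trend) was run on log2(TPM + 1), keeping genes that averaged 1 TPM or more, over 5 bulk libraries or 4 plate means, with Benjamini-Hochberg adjustment; where a condition had a single sample, its spread was taken from the other conditions, and p-values measure the spread between samples, which may be technical. The fit was tested on simulated data. Named genes were all 8 members, per pathway list and bulk comparison up to 2 called genes in each direction with the largest change, and the 3 genes most correlated with each member in 2i. No cell was filtered, no doublet caller was run, and no column was identical to another.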

Additional observations from a re-analysis of the deposited data

How the results depend on the processing

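Depth limits the RNA results in an unknown way, since TPM keeps no read numbers, and counts under about 30 in a ChIP window carry wide intervals. No replicate exists for any ChIP library, the 2i bulk library or the 2i and knockout plates. Without the filter on low genes, 1469 genes were called in bulk 2i against serum (3239 with it), and the unchanged changes of 1.48 for Tnfrsf19 and 1.01 for Ccnd1 in 2i and of 1.02 for Tnfrsf19 in the knockout were no longer called (adjusted p = 0.107, 0.120 and 0.0682). Leaving out 1 library, the count in 2i ranged from 1847 to 2707, that in the knockout from 5825 to 7349 and that of 2i against the knockout from 4246 to 6253. The 2i change ranged from 1.24 to 1.72 for Tnfrsf19 and from 0.78 to 1.24 for Ccnd1, the knockout change of Tnfrsf19 from 0.77 to 1.27, and the difference of Ccnd1 between 2i and the knockout from -1.48 to -1.40. With centring, the bulk values were -0.10 for Tnfrsf19 in the knockout, 1.33 for Tnfrsf19 and -0.57 for Ccnd1 between 2i and the knockout; with quantile normalisation they were 0.082, 1.23 and -0.63. On the plates, centring gave -0.48 for Ccnd1 and -1.25 for Lef1 in 2i, and 0.088 for Tnfrsf19, -0.45 for Ccnd1 and -1.62 for Lef1 in the knockout, and the mean of log2(TPM + 1) over cells called 7988 genes in 2i (5057 in the main fit). Why the calls changed was not tested, except that leaving out a library leaves fewer samples. At a TPM of at least 10, Axin2 was detected in 5.32% of cells in 2i and 1.19% in the knockout, and Tnfrsf19 in 39.4% in 2i, 13.1% in the knockout and 1.11% and 1.08% on the serum plates. In an alternative chosen after seeing the data, cells with 8122 to 8695 detected genes, Axin2 was at 0% in the 10 knockout cells and Tnfrsf19 at 0% in the 7 cells of serum plate 2. The planned range, from the 10th percentile of 2i cells (9463.3 genes) to the 90th percentile of serum cells (8084), held no cell. With 5 counts added, 5 ChIP values of the members were past the fold in the knockout, against 11; as a ratio to input, 21 were past it in 2i (16 in the main setting) and 16 in the knockout. Of 276 ChIP values under the alternatives, 257 stayed within their counting interval and 0 of those past the fold changed sign. The replicate numbers did not pair the bulk libraries (r = -0.025 over genes between same-numbered deviations, 2 pairs); with the replicate block, 7690 genes were called in the knockout (7486 without) and Tnfrsf19 and Ccnd1 stayed called (changes of 1.02 and 2.45).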
